A study of Rattus norvegicus with 14 samples.

Results

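A set of 8 genes that mark the wall cells of blood vessels and contractile connective tissue cells were followed in the rat soleus, a slow calf muscle used in standing, after its tendon was cut. They are Acta2, Tagln, Cnn1, Myh11, Myl9, Pdgfrb, Cspg4 and Rgs5. Every probe set of the deposited array table whose single gene symbol was one of these 8 names was taken, which gave 11 of 31099 probe sets, for 8 of the 14217 genes that a probe set with 1 symbol named. Pdgfrb had 3 probe sets, Myh11 had 2 and the other genes had 1 each. Probe sets were taken by name and not by signal, but the 8 genes were chosen with earlier results of these data known. A further 5 probe sets that name Acta2 together with a second gene were left out. Of the 11 probe sets, 10 lay above a signal of 22.1 on at least 4 arrays and were tested.

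The study measured 14 muscles of male Sprague Dawley rats on Affymetrix arrays, 1 array a muscle. The control group held 4 left soleus muscles, of which replicate 1 came from rat 62, replicate 4 from rat 61 and replicates 2 and 3 from 2 further rats. The short-term group held 6 right soleus muscles, immobilized by tenotomy for 1 week (rats 12 and 13), 2 weeks (rats 25 and 27), 3 weeks (rat 32) or 4 weeks (rat 42). The long-term group held 4 right soleus muscles after 6 weeks (rats 61 and 62), 16 weeks or 22 weeks (1 rat each). Rats 61 and 62 gave both a control and a 6-week muscle, so the 14 arrays came from 12 rats. The short-term muscles and the controls came from different animals throughout, so cohort and tenotomy cannot be told apart there. The labels give no age and name no further treatment, and a cut tendon removes load without removing the nerve.

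Smooth muscle cells around arteries and veins carry their own set of contractile proteins, which include smooth muscle actin (Acta2), smooth muscle myosin heavy chain (Myh11), the regulatory light chain Myl9, calponin (Cnn1) and transgelin (Tagln). Pericytes, the cells wrapped around capillaries, carry the PDGF receptor Pdgfrb, the proteoglycan Cspg4 (NG2) and the G-protein regulator Rgs5. In injured or unloaded tissue, fibroblasts can turn into myofibroblasts, which take up Acta2 and Tagln and lay down collagen, and fibroblasts carry Pdgfrb as well. Whole muscle RNA was measured, so more cells of a type and more RNA per cell cannot be told apart. Signals are linear probe set intensities after the arrays were brought to a common scale. A level is not comparable between probe sets, so only differences between arrays are given. Changes are differences of mean log2 signal with their standard error (SE). A change passed the test when its p-value from limma, adjusted by the Benjamini-Hochberg method over all 20330 probe sets tested, lay below 0.05.

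Many smooth muscle genes are controlled through the CArG box, the site of serum response factor, and the Acta2 promoter is a textbook case. RefSeq promoters of the rat assembly GRCr8 were matched for 4 of the 8 genes (Acta2, Cnn1, Cspg4 and Rgs5). Each window ran from 250 bases before to 50 bases after the gene start. The motif searched was CCNNNNNNGG with a core of A and T in which at most 1 base was C or G. It reads the same on both strands. Acta2 held 2 matches, CCCTATATGG at 134 bases and CCTTGTTTGG at 84 bases before the start, and the other 3 promoters held none. Of 33469 rat promoters of the same length, 9.42% held at least 1 match and 0.846% held 2 or more. No match says only that these letters are absent from the window. The 250 bases before the start are shown for Acta2, which moved down and then up in the first 2 weeks, and for Cnn1, which followed it without a match. They lie at chr1:241172504-241172753 on the minus strand and at chr8:28908187-28908436 on the plus strand, and capitals mark the matches.
Acta2: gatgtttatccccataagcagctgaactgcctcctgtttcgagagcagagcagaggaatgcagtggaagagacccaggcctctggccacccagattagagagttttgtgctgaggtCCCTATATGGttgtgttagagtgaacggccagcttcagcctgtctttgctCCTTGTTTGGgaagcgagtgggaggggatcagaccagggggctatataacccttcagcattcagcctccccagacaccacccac
Cnn1: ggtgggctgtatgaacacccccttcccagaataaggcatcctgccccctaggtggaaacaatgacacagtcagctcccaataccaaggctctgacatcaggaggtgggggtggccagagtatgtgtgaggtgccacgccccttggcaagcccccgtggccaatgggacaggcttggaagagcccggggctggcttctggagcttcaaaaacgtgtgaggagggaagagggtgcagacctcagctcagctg

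At 1 week both arrays lay below every control for Acta2 and Cnn1 and did not for the other contractile genes. The fall passed the test for Acta2 only. At 2 weeks both arrays lay above every control for all 5 contractile genes. The share of all probe sets with both arrays outside the control range is not given here. Of all probe sets tested, 35.9% at 1 week and 45.5% at 2 weeks had an unadjusted limma p below 0.05. Smooth muscle actin, Acta2, had signals of 330.7, 483.6, 470.6 and 364.7 in control replicates 1 to 4. It read 233.6 and 252.9 at 1 week, 588.4 and 724.8 at 2 weeks, 377.2 at 3 weeks and 459.6 at 4 weeks. Both 1-week arrays lay below every control, both 2-week arrays lay above every control, and weeks 3 and 4 lay within the control range. The 6-week muscles had 286.2 and 397.4, the 16-week muscle 438.5 and the 22-week muscle 315.8, of which rat 61 and the 22-week muscle lay below the control range and none lay above it.

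Acta2 fell by 0.74 on the log2 scale at 1 week (SE 0.21, limma adjusted p = 0.028, 2 arrays against 4) and rose by 0.68 at 2 weeks (SE 0.21, adjusted p = 0.026). It was the only 1 of the 10 probe sets called lower at 1 week, where 12.7% of all probe sets tested were called lower, 9.06% were called higher and no member was. Averaged over weeks 1 to 4 its change from control was -0.01 (SE 0.28, adjusted p = 0.98), because the weeks lay on both sides of the controls. The 1-week call was lost without rat 12 (-0.69, adjusted p = 0.17) or rat 13 (-0.80, adjusted p = 0.097), and without control replicate 2 (adjusted p = 0.058) or 3 (adjusted p = 0.063). It was also lost with quantile normalization (-0.61, adjusted p = 0.07), a trimmed mean (-0.57, adjusted p = 0.077), no filter (adjusted p = 0.071) or no intensity trend (adjusted p = 0.052). The 2-week call was lost without rat 27 (0.53, adjusted p = 0.19) and without control replicate 1 (adjusted p = 0.061) or 4 (adjusted p = 0.056). On the deposited scale the 2-week change was 0.21 (adjusted p = 0.51) and with array medians made equal over all probe sets 0.41 (adjusted p = 0.12), and the call was also lost with no filter (adjusted p = 0.063) or array weights (adjusted p = 0.099).

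Transgelin, Tagln, binds actin filaments and is among the first genes switched on when cells take on a smooth muscle character. Its control signals were 465, 556.4, 478.5 and 404.8 for replicates 1 to 4, and its 1-week signals were 484.7 and 533.4. It then read 1346 and 2545 at 2 weeks, 1048 at 3 weeks and 1504 at 4 weeks, all 4 above every other array. It was 607.5 and 444.5 in rats 61 and 62 at 6 weeks, 619.1 at 16 weeks and 480.9 at 22 weeks, back among or just above the controls.

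The Tagln change was 1.97 at 2 weeks (SE 0.24, limma adjusted p = 5e-04), a 3.91-fold rise and the largest of the 10 probe sets at that time. This call stood under all 27 alternatives run, with adjusted p-values up to 0.0057. Over the whole short-term group Tagln rose by 1.16 (SE 0.35, adjusted p = 0.017), and the long-term group lay 0.99 below the short-term group (-0.99, SE 0.35, adjusted p = 0.038). This last call was lost in 13 of 28 alternatives. At 1 week its change was 0.10 (SE 0.24, adjusted p = 0.79).

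The regulatory light chain Myl9, through which myosin light chain kinase starts smooth muscle contraction, took the same course. It had 370.6, 352.2, 310.2 and 314.3 in control replicates 1 to 4. It read 332.4 and 402.8 at 1 week, 834.3 and 1046 at 2 weeks, 690.7 at 3 weeks and 1142 at 4 weeks. At 1 week rat 13 lay above every control and rat 12 among them. Weeks 2 to 4 again lay above every other array. The 6-week muscles had 520.9 (rat 61) and 352.2 (rat 62), and the 16-week and 22-week muscles 448 and 297.2.

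Myl9 rose by 1.48 at 2 weeks (SE 0.19, limma adjusted p = 0.00057), and the call stood under all 27 alternatives run with adjusted p-values up to 0.0073. Over the short-term group it rose by 1.00 (SE 0.30, adjusted p = 0.015). Its change of -0.77 from the short-term to the long-term group narrowly missed the threshold (SE 0.30, adjusted p = 0.054).

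Smooth muscle myosin, Myh11, is the most restricted of these markers to mature smooth muscle. Its main probe set, 1370896_a_at, had 343.1, 363.5, 288.5 and 345.6 in control replicates 1 to 4. Signals were 335.4 and 285.8 at 1 week, 857.9 and 425.9 at 2 weeks, 503 at 3 weeks and 1064 at 4 weeks. Weeks 2 to 4 lay above the controls and the week 1 arrays did not. Rat 61 at 6 weeks also lay well above its control muscle, at 558, while rat 62 and the 16-week and 22-week muscles had 356.3, 383.8 and 394.

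Myh11 rose by 0.86 at 2 weeks (SE 0.27, limma adjusted p = 0.03), a call carried by rat 25: without it the change was 0.35 (adjusted p = 0.29). It was also lost without control replicate 1 (adjusted p = 0.052) or 3 (adjusted p = 0.065). The 2-week change was 0.39 on the deposited scale (adjusted p = 0.37) and 0.58 with equal array medians (adjusted p = 0.10). Over the short-term group its change was 0.63 (SE 0.30, adjusted p = 0.11). The second Myh11 probe set, 1381219_at, did not pass the signal limit. It stood at the floor of 9.73 on 8 of 14 arrays and reached at most 17.4, so it adds no level.

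Calponin, Cnn1, which restrains the actin-activated myosin ATPase in smooth muscle, followed Acta2 in being low at 1 week. Its control signals were 59.84, 66.91, 46.04 and 36.01 for replicates 1 to 4. It read 25.9 and 29.6 at 1 week, 130.6 and 71.95 at 2 weeks, 71.52 at 3 weeks and 146.7 at 4 weeks. The 1-week arrays were the lowest of all 14 and the arrays of weeks 2 to 4 the highest. Long-term signals were 52.45 and 49.94 at 6 weeks, 49.76 at 16 weeks and 37.71 at 22 weeks, all within the control range.

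The Cnn1 change was -0.87 at 1 week (SE 0.32, limma adjusted p = 0.076) and 0.93 at 2 weeks (SE 0.32, adjusted p = 0.045). The 2-week call was lost in 13 of 27 alternatives, and without rat 25 the change was 0.50 (adjusted p = 0.32). On the deposited scale the 2-week change was 0.47 (adjusted p = 0.29), and with equal array medians the 1-week change of -1.08 did pass (adjusted p = 0.026). Its short-term mean was 0.36 above control (SE 0.42, adjusted p = 0.53), with the weeks on both sides of it.

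**Figure D1:**
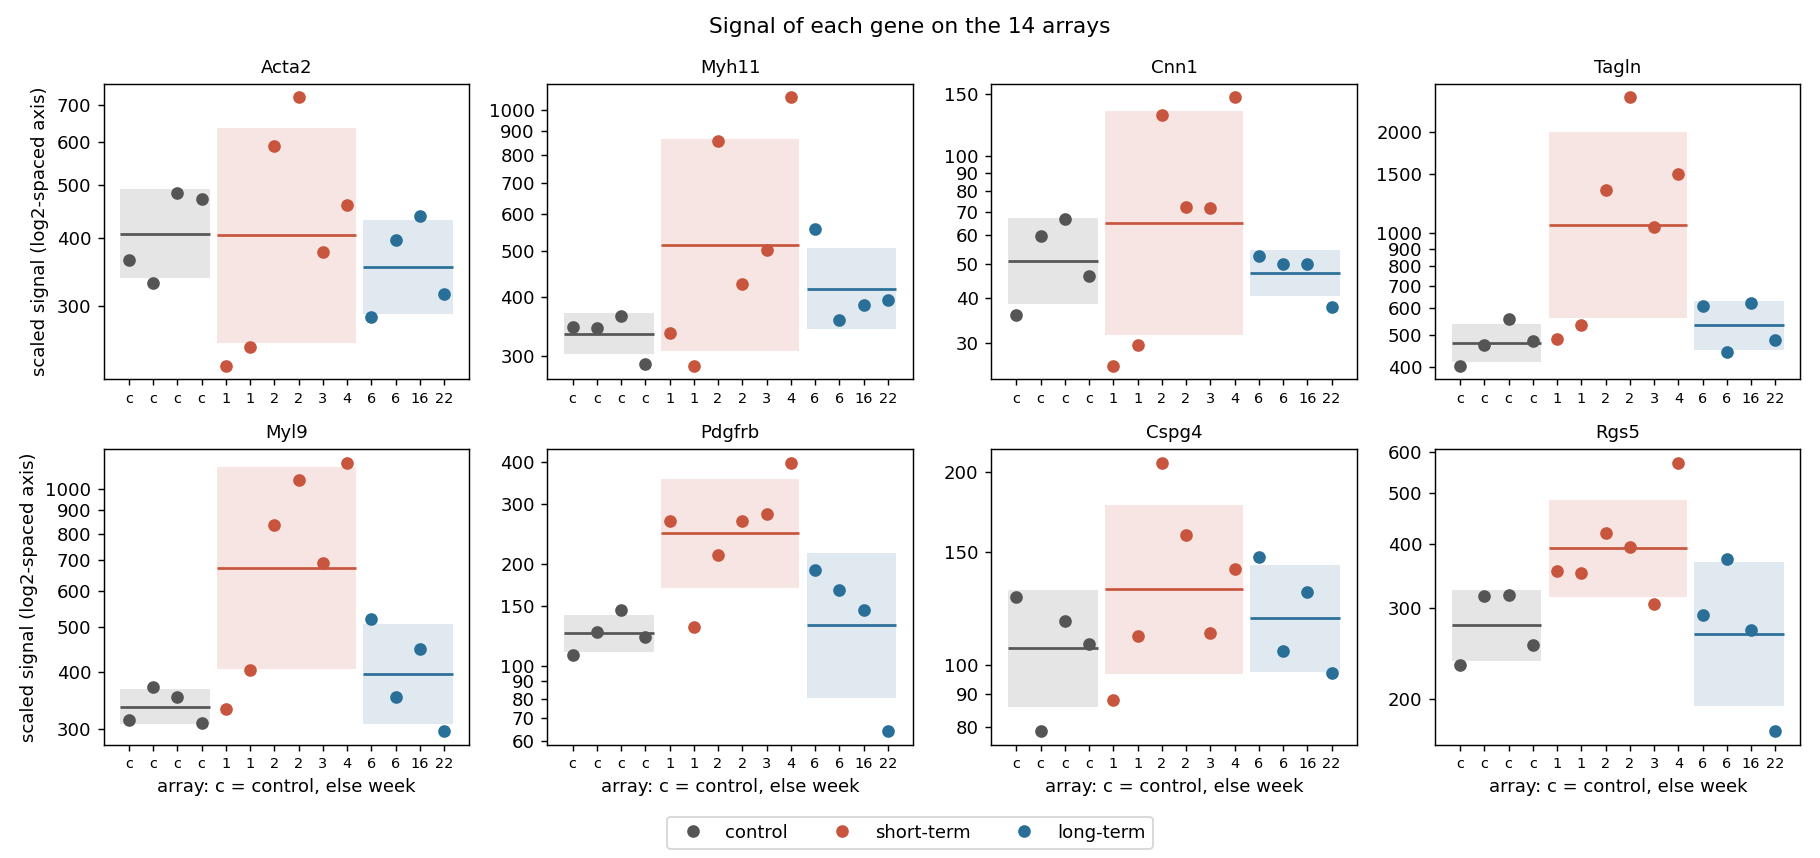
Scaled signal of each of the 8 genes on the 14 arrays (vertical axis, log2-spaced; horizontal axis, c for a control muscle and otherwise the week), with Pdgfrb and Myh11 shown by their brightest probe set. Lines are group means of log2 signal and bands are 1 SD either side; for Tagln the 1-week arrays read 484.7 and 533.4, and the arrays of weeks 2 to 4 lie between 1048 and 2545.

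The step between week 1 and weeks 2 to 4 was tested as a comparison added after the values were seen, with 2 arrays against 4. Cnn1 rose by 1.85 (SE 0.34, limma adjusted p = 0.034), Tagln by 1.58 (SE 0.27, adjusted p = 0.026) and Myl9 by 1.32 (SE 0.23, adjusted p = 0.03). These were 3 of the 10 probe sets, while 0.157% of all probe sets tested (32) were called higher in that comparison. Acta2 and Myh11 each changed by 1.10 without passing the test (SE 0.25, adjusted p = 0.083, and SE 0.30, adjusted p = 0.13). All 3 calls were lost with no filter (adjusted p = 0.051 to 0.056), and when rat 12, 13 or 42 or control replicate 1 was left out, with changes of 1.18 to 1.94 and adjusted p-values of 0.052 to 0.27. Because the pattern was seen first and tested second, the p-values are no independent evidence for it.

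Pdgfrb, the receptor that holds pericytes to the vessel and drives fibroblast growth, did not share the low first week of Acta2 and Cnn1. Its probe set 1370642_s_at had 126.1, 146.6, 122.1 and 107.4 in control replicates 1 to 4. It read 268.3 and 130.6 at 1 week, 211.9 and 268.1 at 2 weeks, 280 at 3 weeks and 398 at 4 weeks. Rat 13 at 1 week lay inside the control range and the other 5 short-term arrays above it. The 6-week muscles had 191.5 and 167.7, and the 16-week and 22-week muscles 146.2 and 64.21, of which the last was the lowest of all 14 arrays.

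The other 2 Pdgfrb probe sets share a source sequence on the array. Probe set 1391394_s_at had 37.85, 32.96, 36.11 and 31.79 in control replicates 1 to 4. It read 53.01 and 47.71 at 1 week, 79.9 and 93.74 at 2 weeks, 43.23 at 3 weeks and 45.01 at 4 weeks. All 6 short-term arrays lay above all controls, with the peak at 2 weeks rather than at 4. Its long-term signals were 35.38, 36.03, 24.29 and 29.51 in rats 61 and 62 at 6 weeks and at 16 and 22 weeks, and none of them lay above the control range.

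Its partner, probe set 1379211_at, had 66.1, 78.69, 52.77 and 42.51 in control replicates 1 to 4. It read 89.55 and 88.73 at 1 week, 103.7 and 199.4 at 2 weeks, 52.95 at 3 weeks and 100 at 4 weeks. The 3-week array fell back into the control range and the other 5 short-term arrays lay above it. Its long-term signals were 50.55, 39.67, 44.43 and 24.05 in rats 61 and 62 at 6 weeks and at 16 and 22 weeks.

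The 3 probe sets agreed on a higher short-term level and disagreed on the later course within it. Over the short-term group the change was 0.98 for 1370642_s_at (SE 0.30, limma adjusted p = 0.018) and 0.74 for 1391394_s_at (SE 0.24, adjusted p = 0.025). It was 0.74 for 1379211_at, which missed the threshold (SE 0.31, adjusted p = 0.069). The short-term call was lost in 2 of 28 alternatives for 1370642_s_at and in 6 of 27 for 1391394_s_at. On the deposited scale the changes were 0.80 (adjusted p = 0.10) and 0.56 (adjusted p = 0.085). With equal array medians 1391394_s_at had 0.53 (adjusted p = 0.074), and with quantile normalization 0.57 (adjusted p = 0.072). At 1 week none of the 3 passed, with changes of 0.58, 0.54 and 0.61 and adjusted p-values of 0.14, 0.14 and 0.21 in that order. At 2 weeks all 3 did, with changes of 0.93, 1.32 and 1.30 and adjusted p-values of 0.021, 0.0026 and 0.012. The long-term group lay below the short-term group in all 3, by -0.90 (adjusted p = 0.028), -0.90 (adjusted p = 0.0091) and -1.35 (adjusted p = 0.0035). The last 2 of these calls stood under all 27 alternatives run. Without the 22-week array the change of 1370642_s_at was -0.56 (adjusted p = 0.12), and without rat 42 it was -0.76 (adjusted p = 0.06). Without rat 27 the 2-week changes of 1370642_s_at and 1379211_at were 0.76 (adjusted p = 0.16) and 0.83 (adjusted p = 0.15). On the deposited scale they were 0.47 (adjusted p = 0.28) and 0.83 (adjusted p = 0.055).

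**Figure D2:**
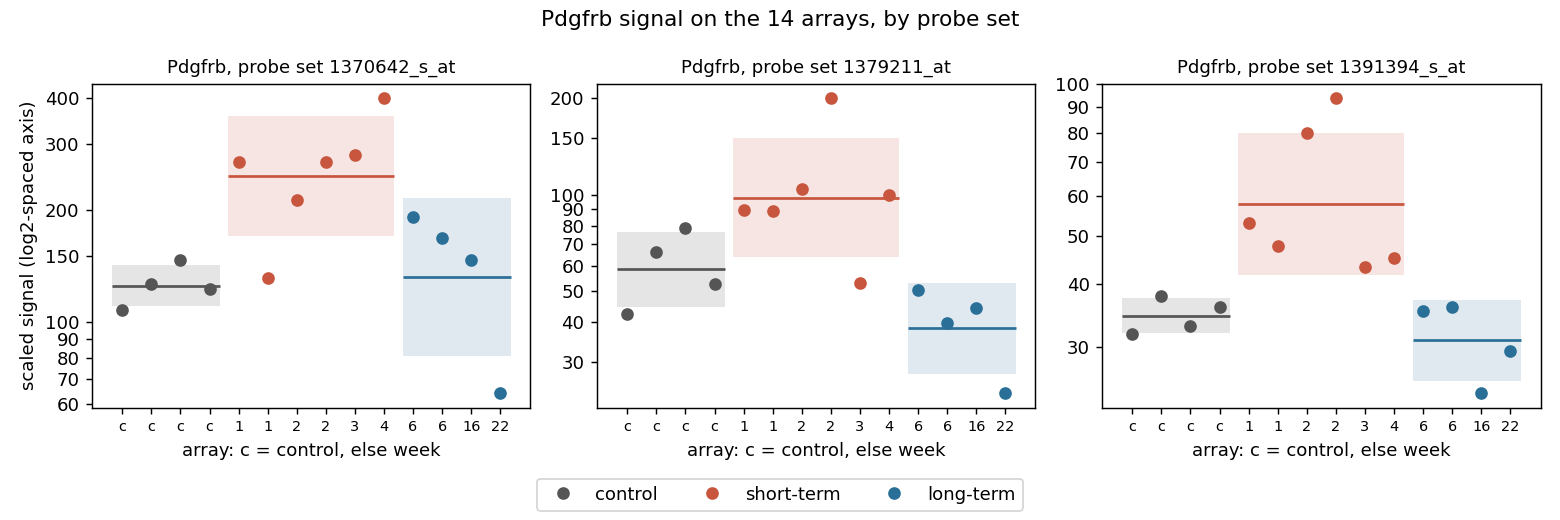
Scaled signal of the 3 Pdgfrb probe sets on the 14 arrays (vertical axis, log2-spaced; horizontal axis, c for a control muscle and otherwise the week), with group means of log2 signal as lines and 1 SD either side as bands. Probe set 1370642_s_at peaks at 4 weeks (398) and the other 2 peak in rat 27 at 2 weeks (199.4 and 93.74).

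Cspg4 and Rgs5, the other pericyte genes, passed the test against control at 2 weeks only. Cspg4, a surface proteoglycan, had 78.83, 117.2, 107.6 and 127.7 in control replicates 1 to 4, and 88.18 and 111 at 1 week. It read 206.6 and 159.4 at 2 weeks, 112.3 at 3 weeks and 141.1 at 4 weeks, so that weeks 2 and 4 lay above the controls and weeks 1 and 3 among them. Its long-term signals ran from 97.01 to 147.3. Rgs5, which dampens signalling by G-protein coupled receptors, had 317.2, 318.8, 254.2 and 232.7 in control replicates 1 to 4. It read 354.3 and 350.8 at 1 week, 419.1 and 394.5 at 2 weeks, 305.5 at 3 weeks and 573.4 at 4 weeks, with the 3-week array alone inside the control range. Its long-term signals ran from 173.6 at 22 weeks to 373.4 in rat 62 at 6 weeks.

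At 2 weeks Cspg4 rose by 0.77 (SE 0.25, limma adjusted p = 0.035) and Rgs5 by 0.55 (SE 0.18, adjusted p = 0.038). These calls were lost in 8 and 11 of 27 alternatives, and without rat 25 the changes were 0.59 (adjusted p = 0.17) and 0.50 (adjusted p = 0.11). They were smaller on the deposited scale, at 0.31 (adjusted p = 0.45) and 0.08 (adjusted p = 0.82), and with equal array medians, at 0.50 (adjusted p = 0.13) and 0.28 (adjusted p = 0.25). Over the short-term group neither passed the test, with 0.31 for Cspg4 (SE 0.23, adjusted p = 0.30) and 0.49 for Rgs5 (SE 0.21, adjusted p = 0.069). With the rat as a replicate block Rgs5 did pass, at 0.54 (adjusted p = 0.043). The long-term group lay 0.55 below the short-term group for Rgs5 (-0.55, SE 0.21, adjusted p = 0.047), and that call was lost in 16 of 28 alternatives. Without the 22-week array it was -0.34 (adjusted p = 0.19), and with equal array medians -0.30 (adjusted p = 0.20).

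Counted together, 4 of the 10 probe sets rose in the short-term group (Tagln, Myl9 and 2 of Pdgfrb) and none fell, where 16.1% of all probe sets tested were called higher and 23.1% lower. Their median change was 0.68 against -0.10 for all probe sets tested. Without control replicate 4 the count was 2, because both Pdgfrb calls were lost (adjusted p = 0.051 and 0.062), and on the deposited scale it was 1. At 2 weeks all 10 rose, where 15% of all probe sets tested rose and 19.9% fell, and their median change was 0.93 against -0.07. That count rests on the array scaling. On the deposited scale 3 were called, with a median change of all probe sets of -0.54, and with array medians made equal over all probe sets 4 were called, with a median of -0.35. It also fell to 5 without rat 27 and to 6 without rat 25 or control replicate 1 or 3. Without the 1-week arrays, an alternative chosen after the values were seen, 6 of 10 rose over weeks 2 to 4: Tagln (1.69, adjusted p = 0.00015), Myl9 (1.44, adjusted p = 0.00015), Myh11 (0.99, adjusted p = 0.0069), Cnn1 (0.97, adjusted p = 0.015) and Pdgfrb (1.18, adjusted p = 0.0066, and 0.84, adjusted p = 0.027). The share of all probe sets called under this alternative is not given here, so the 6 cannot be set against it. Over the alternatives run, between 1916 and 4485 probe sets in all were called higher in the short-term group, against 3265 in the main fit.

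From the short-term to the long-term group 5 of the 10 fell (Tagln, Rgs5 and all 3 of Pdgfrb) and none rose, where 15.5% of all probe sets tested were called lower and 22.1% higher. Their median change was -0.66 against 0.09. The count was 3 without rat 25, rat 27 or the 16-week array and 2 without rat 42 or the 22-week array. All comparisons with control share the same 4 control arrays, and this one shares the short-term arrays with the first.

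**Figure D3:**
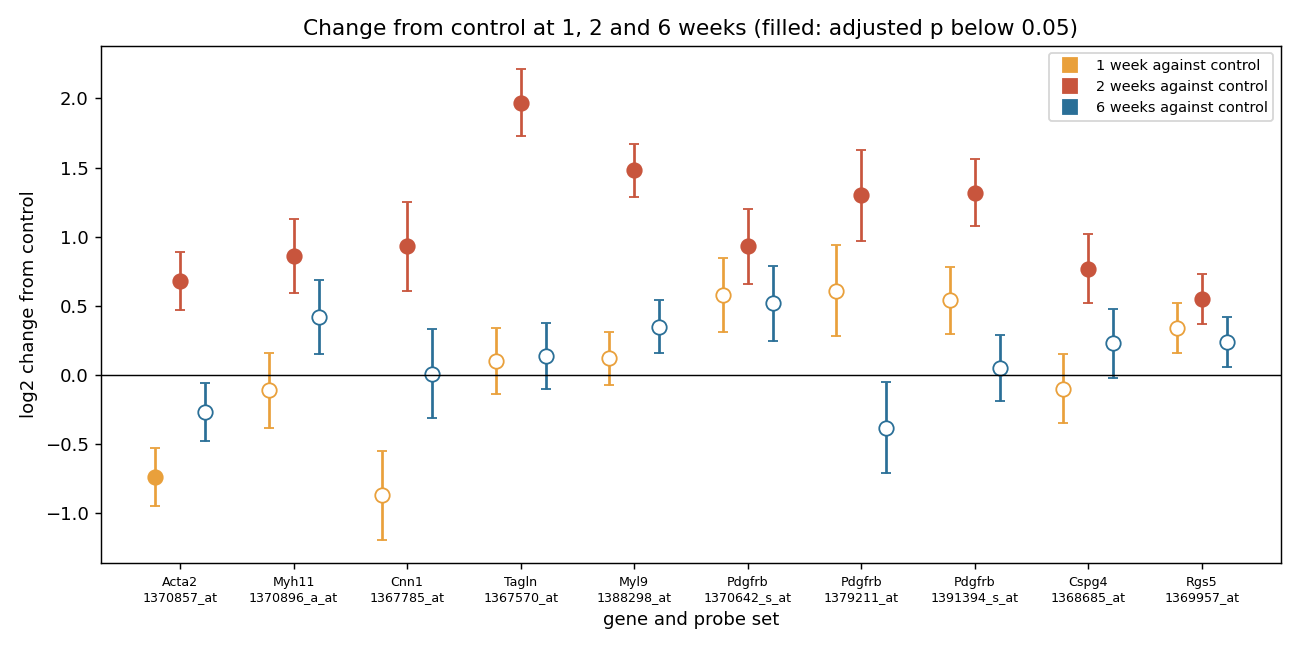
Log2 change from control (vertical axis) of the 10 tested probe sets at 1, 2 and 6 weeks (2 arrays each against 4 controls), with bars of 1 SE either side and filled points where the limma adjusted p lies below 0.05. Acta2 is called lower at 1 week (-0.74), all 10 are called higher at 2 weeks (0.55 to 1.97) and none is called at 6 weeks.

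By 6 weeks the members were no longer called different from control. Of the 10 probe sets 0 passed at 6 weeks and 0 passed in the long-term group, where 0% of the 20330 probe sets passed either way in limma. At an unadjusted p below 0.05 the counts over all probe sets were 809 (3.98%) and 459 (2.26%), with no member among them. The largest member change was -0.61 in the long-term group (Pdgfrb 1379211_at, SE 0.34) and 0.52 at 6 weeks (Pdgfrb 1370642_s_at, SE 0.27). With 4 arrays or fewer in each group, these SEs leave room for changes of moderate size.

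Within the rats that gave both muscles, the 6-week minus control difference depended on the animal. In rat 61 it was 0.73 for Myl9, 0.69 for Myh11, 0.59 for Tagln, 0.54 for Cnn1 and 0.83 for Pdgfrb 1370642_s_at, all higher in the tenotomized muscle, and -0.35 for Acta2. In rat 62 the same differences were -0.07, 0.05, -0.06, -0.26, 0.41 and 0.27. The other Pdgfrb probe sets did not share the direction of 1370642_s_at in both rats, with 0.25 and -0.74 for 1379211_at and 0.15 and -0.07 for 1391394_s_at in rats 61 and 62. Acta2 therefore went the other way from the other contractile genes in rat 61. Cspg4 (0.21 and 0.41) and Rgs5 (0.32 and 0.24) were higher after tenotomy in both rats. With 2 rats no test of these differences by permutation could pass a threshold of 0.05.

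A log2 ratio to Myh11 on the same array does not depend on the scaling and shows whether a member moved more or less than mature smooth muscle myosin. The Tagln to Myh11 ratio was 0.50 ± 0.22 (SD, n = 4) in controls, 1.04 ± 0.79 (SD, n = 6) in the short-term group and 0.35 ± 0.24 (SD, n = 4) in the long-term group. The Acta2 to Myh11 ratio was 0.29 ± 0.34, -0.35 ± 0.65 and -0.23 ± 0.54 in the same groups. Of the 21 ratios compared (7 genes, 3 comparisons) none passed the exact two-sided permutation test, the smallest p being 0.081 before and 0.57 after adjustment. The smallest p possible was 0.0048 with 6 against 4 arrays and 0.029 with 4 against 4.

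Other genes of smooth muscle contraction and its cytoskeleton were then counted. Of 16 tested, 4 rose and 1 fell in the short-term group, where 16.1% of all probe sets tested rose and 23.1% fell. The median change of the 16 was 0.37 against -0.10 for all probe sets tested. Under the other 5 scalings 2 to 8 rose and the median was 0.18 to 0.62. The risen genes with the largest changes were Itga8, an integrin chain of smooth muscle and mesenchymal cells (1.33, SE 0.32, adjusted p = 0.0044), Csrp1, a LIM protein of smooth muscle (1.13, SE 0.27, adjusted p = 0.0042), and Cald1, caldesmon (0.77, SE 0.27, adjusted p = 0.032). Synpo2, an actin-binding protein also found in the Z-discs of muscle fibres, fell by 0.42 (SE 0.13, adjusted p = 0.019). In the comparison of weeks 2 to 4 with week 1, 1 of the 16 passed. It was Actg2, the enteric smooth muscle actin, at 2.46 (SE 0.38, adjusted p = 0.019), named here after its values were seen. Under the other scalings 0 or 1 passed.

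Pericyte genes went both ways. Of 16 tested, 5 rose and 2 fell in the short-term group, where 16.1% of all probe sets tested rose and 23.1% fell. The median change of the 16 was 0.12. Under the other scalings 3 to 5 rose and 1 to 4 fell, and the median took either sign (-0.09 to 0.30). Cd248, a membrane protein that fibroblasts carry as well, rose by 1.55 (SE 0.32, limma adjusted p = 0.0017). Anpep, an aminopeptidase also found on fibroblasts and myeloid cells, rose by 1.48 (SE 0.30, adjusted p = 0.0013), and Tbx18, a transcription factor of mural cells, by 1.36 (SE 0.40, adjusted p = 0.013). Abcc9, the regulatory subunit of a potassium channel that muscle fibres use too, fell by 0.79 (SE 0.12, adjusted p = 0.00023), and the laminin receptor Itga7, an integrin chain prominent in muscle fibres, fell by 0.40 (SE 0.14, adjusted p = 0.036).

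Most myofibroblast genes rose. Of 17 tested, 15 rose and 0 fell in the short-term group, and their median change was 2.19 (15 to 17 risen, median 2.00 to 2.37 under the other scalings). Cthrc1, a secreted protein of activated fibroblasts, rose by 5.74 (SE 0.60, limma adjusted p = 1.7e-05), Postn, the matrix protein periostin, by 3.68 (SE 0.62, adjusted p = 4e-04) and Thy1, a surface protein of fibroblasts, by 3.39 (SE 0.60, adjusted p = 0.00054). Of the 17, 12 had already risen at 1 week, where their median was 1.64, and 16 had risen at 2 weeks, where it was 2.56. Under the other scalings 9 to 12 and 11 to 16 had. In weeks 2 to 4 against week 1 their median was 0.50 and 0 of 17 passed in limma, 5 having an unadjusted p below 0.05. Whether Tagln and Myl9 differed from this list in their timing was not tested.

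Genes of the serum response factor pathway and its cytoskeletal targets gave 10 risen and 2 fallen of 20, with a median of 0.50 (5 to 11 risen, median 0.30 to 0.71 under the other scalings). Cnn2, the calponin of non-muscle cells, rose by 1.21 (SE 0.31, limma adjusted p = 0.0067), the actin crosslinker Actn4 by 1.16 (SE 0.31, adjusted p = 0.0087) and Tagln2, the transgelin of non-muscle cells, by 1.13 (SE 0.32, adjusted p = 0.012). Srf itself fell by 0.67 (SE 0.15, adjusted p = 0.0029), and the LIM protein Fhl2 by 0.80 (SE 0.24, adjusted p = 0.017). At 1 week 1 of the 20 had risen and 1 had fallen, and at 2 weeks 9 had risen and 0 had fallen in limma. The 2-week count rests on the scaling, with 4 risen and 4 fallen on the deposited scale and 12 risen and 0 fallen under quantile normalization.

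Ligands and receptors of the PDGF and angiopoietin pathways, which recruit mural cells, gave 2 risen and 1 fallen of 12, with a median of -0.01. Over all probe sets tested 16.1% rose, a share close to 2 of 12. Under the other scalings 1 to 4 rose, 0 or 1 fell and the median was -0.22 to 0.17. Pdgfra, the PDGF receptor of fibroblasts, rose by 1.17 (SE 0.23, limma adjusted p = 0.001) and the Notch ligand Jag1 by 0.64 (SE 0.21, adjusted p = 0.023). The sphingosine phosphate receptor S1pr1, which is strongest in endothelium, fell by 0.58 (SE 0.16, adjusted p = 0.012).

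**Figure D4:**
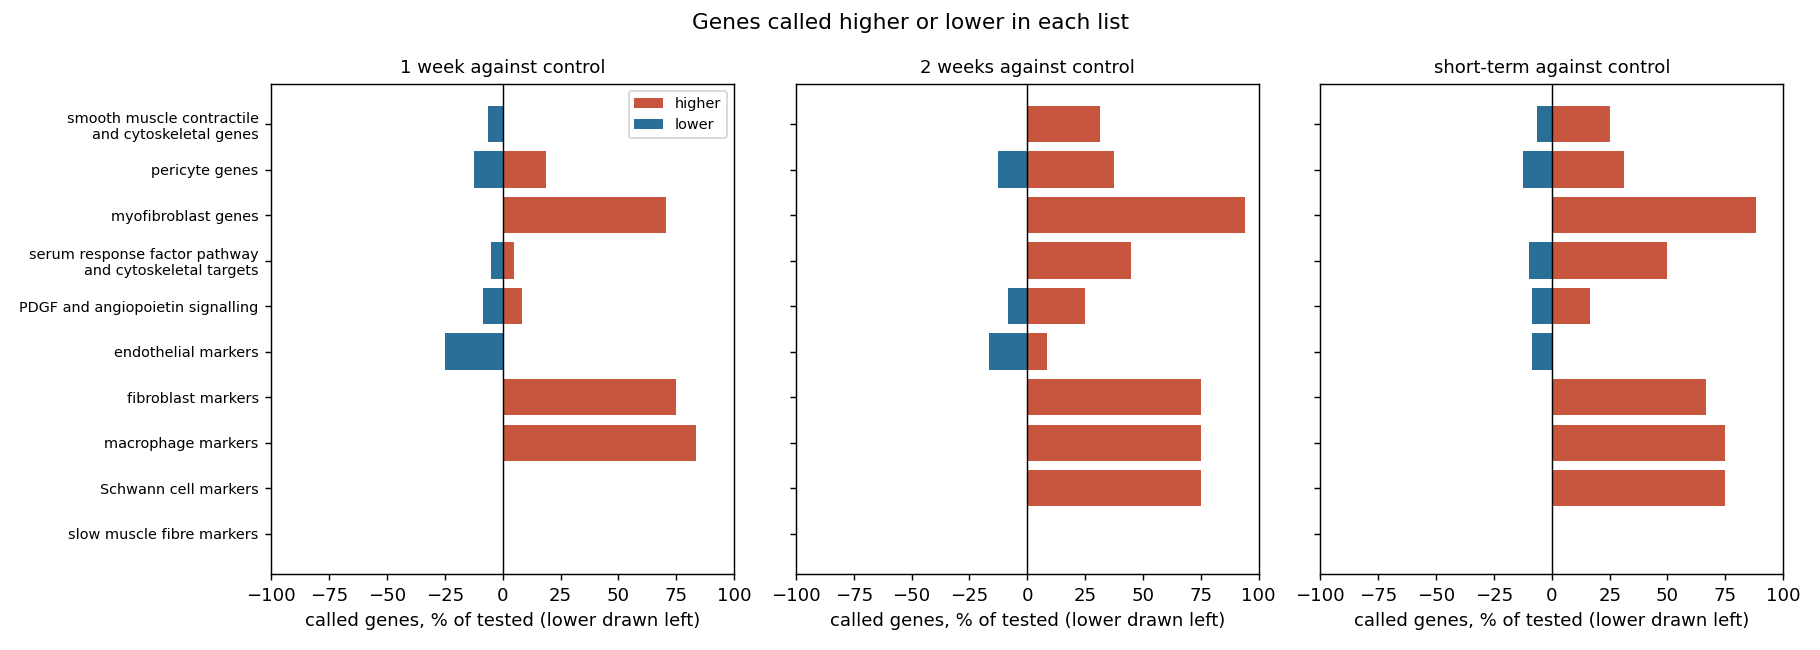
Share of the tested genes of each list that was called higher (right) or lower (left) than control at 1 week, at 2 weeks and over the short-term group (horizontal axis, % of tested genes; limma adjusted p below 0.05). Myofibroblast genes are called higher in 12, 16 and 15 of 17 cases, and slow muscle fibre markers are called in 0 of 11 each time (under other scalings up to 4 are higher at 2 weeks and up to 2 lower).

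Markers of other cells of the muscle were set beside the members, and their courses differed from list to list. A sum of signals is led by its brightest probe sets and does not show genes that moved in different directions. The summed signal of the 8 genes, 1 probe set a gene, was 1933 to 2405 in controls, 2123 and 2097 at 1 week, 4595 and 5635 at 2 weeks, 3388 at 3 weeks, 5428 at 4 weeks and 1860 to 2655 in the long-term group. The 12 endothelial markers summed to 3436 to 4121 in controls, 3015 and 3021 at 1 week, 3880 to 5793 in weeks 2 to 4 and 3180 to 4746 in the long-term group. Their 1-week sums were the lowest of the 14 arrays, and 3 of the 12 fell at 1 week: Pecam1 (-0.92, limma adjusted p = 0.0025), Kdr (-0.88, adjusted p = 0.0054) and Vwf (-0.60, adjusted p = 0.046). Over all probe sets tested 12.7% were called lower at 1 week. In the short-term group 1 of the 12 markers fell (Kdr, -0.76, adjusted p = 0.00068) and 0 rose in limma. There 23.1% of all probe sets tested fell and 16.1% rose. Of the 12, 2 had an unadjusted p below 0.05, Kdr among them. Under the other scalings 0 to 3 rose.

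Fibroblast markers rose in 8 of 12 cases and summed to 38286 to 64420 in the short-term group against 16673 to 22445 in controls and 7764 to 24511 in the long-term group. Macrophage markers rose in 9 of 12 cases and summed to 2943 to 6682 against 925.6 to 1923 and 528 to 2043. Both lists were already high at 1 week, with 9 and 10 genes called higher of 12 (6 to 10 and 9 to 11 under the other scalings). The low ends of 7764 and 528 are both the 22-week array, the lowest of the 14 for both lists as for Pdgfrb 1370642_s_at and Rgs5, whose long-term calls were lost without it. The part of those markers in these calls was not tested.

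The sum of the Schwann cell markers stayed near control at 1 week and was higher from 2 weeks. The 4 that were tested summed to 1320 to 1461 in controls, 1542 and 1599 at 1 week, 3037 to 3798 in weeks 2 to 4 and 1202 to 1787 in the long-term group. This sum mostly follows Pmp22, whose geometric mean in controls was 1164, against 103.7 for S100b, 73.21 for Prx and 66.28 for Mbp. Of the 4, 3 rose in the short-term group (1 to 3 under the other scalings), 0 at 1 week and 3 at 2 weeks. The 1 with an unadjusted p below 0.05 at 1 week was Prx, which was lower (-0.85, SE 0.35, limma adjusted p = 0.10). In weeks 2 to 4 against week 1 the 3 that passed were Mbp (2.31, SE 0.38, adjusted p = 0.023), Prx (1.73, adjusted p = 0.033) and Pmp22 (0.96, adjusted p = 0.034), all myelin genes, named here after their values were seen. In that comparison 1 passed on the deposited scale and 2 with equal array medians. Markers of slow muscle fibres, which check the tissue, were called in 0 of 11 cases in the short-term group in limma (0 at an unadjusted p below 0.05; up to 2 lower under the other scalings) and summed to 79039 to 103792, 74326 to 111774 and 90484 to 116428 in control, short-term and long-term muscle. No marker of these lists was listed at 0. The Gapdh 3' to 5' ratio, a measure of RNA integrity, ran from 1.38 to 2.78 in controls, from 1.16 to 1.61 in the short-term and from 1.38 to 2.78 in the long-term group. The same ratio for actin was higher in the short-term group, at 1.97 to 3.87 against 1.47 to 2.37 in controls and 1.39 to 3.74 in the long-term group, with overlap, so the 2 ratios ordered the groups differently. The part that these other cells and RNA quality had in the members' changes was not tested.

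**Figure D5:**
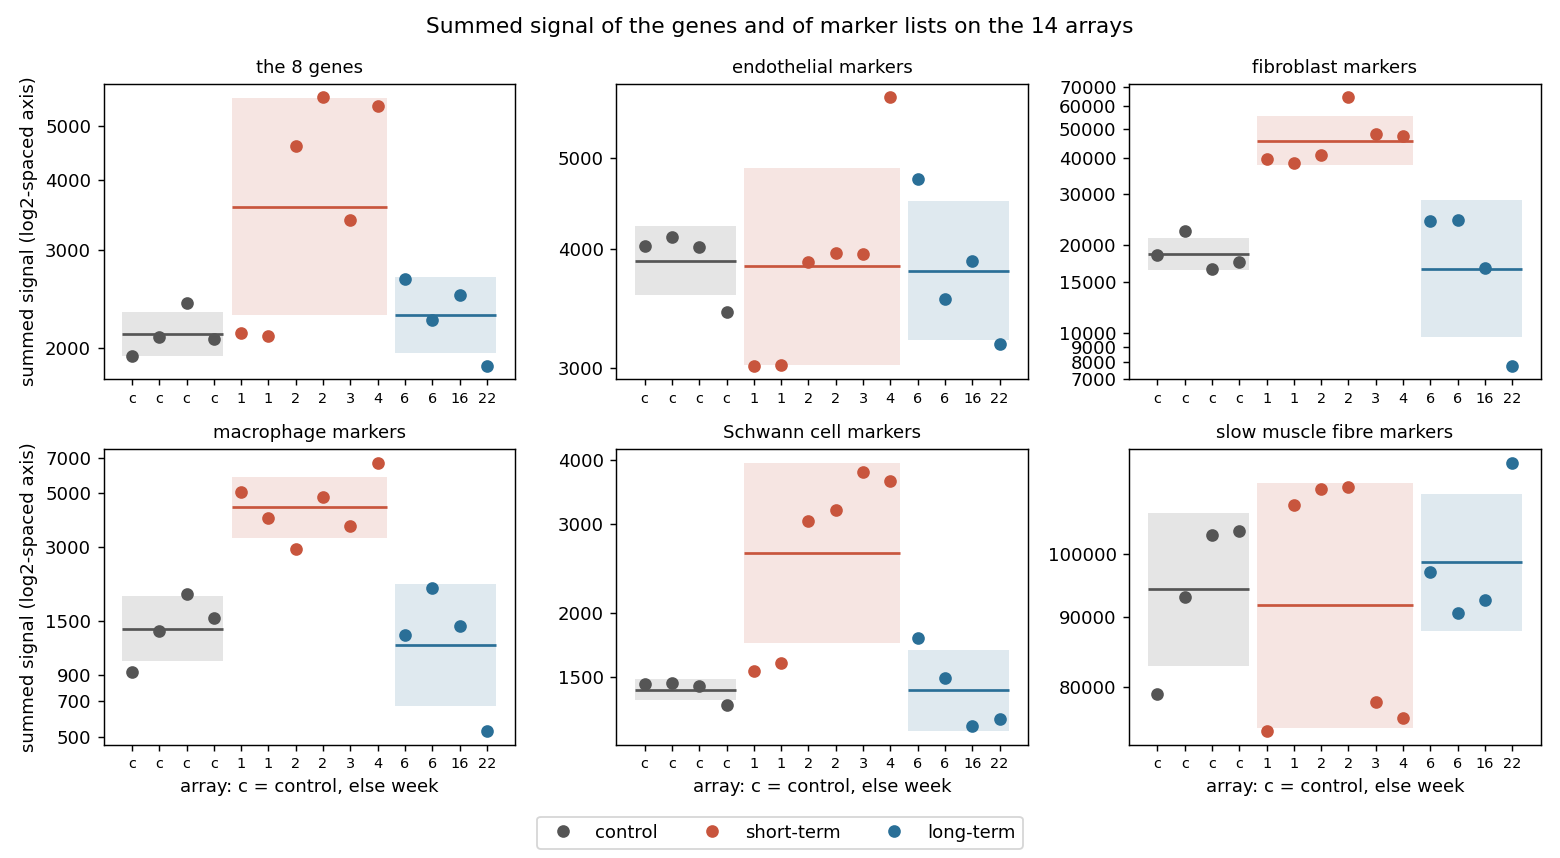
Summed scaled signal (vertical axis, log2-spaced) of the 8 genes and of 5 marker lists on the 14 arrays (horizontal axis, c for a control muscle and otherwise the week), with group means of log2 sums as lines and 1 SD either side as bands. The sums of the 8 genes and of the Schwann cell markers stay near control at 1 week and are high in weeks 2 to 4. The sums of the fibroblast and macrophage markers are high from week 1.

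The genes closest in profile to the members called in the short-term group were sought among 15117 tested probe sets with 1 symbol, by the mean absolute difference of centred log2 signals over the 14 arrays. Closest to Tagln were Myl9 (0.18), the actin crosslinker Flna (0.21) and Tpm1, a tropomyosin, by its probe set 1370287_a_at (0.21). Closest to Myl9 were Ecscr, an endothelial surface protein (0.18), C1h19orf33 (0.18) and Tagln (0.18). Closest to Pdgfrb 1370642_s_at were Dtx4 (0.17), Tc2n (0.18) and the laminin chain Lama4 (0.19), and closest to Pdgfrb 1391394_s_at were Ccnd1, which encodes cyclin D1 (0.17), Ubtf (0.17) and Bbc3 (0.19). Probe sets of the member's own gene were left out of this search, so it does not compare the Pdgfrb probe sets with each other.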

How the data were processed

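Total RNA of 14 soleus muscles was measured on Affymetrix arrays. The authors' deposited values are linear signal intensities per probe set from MAS5, per the submitters' processing notes. Their scaling target and software version are not given in the sources used here. Array medians of the deposited values ran from 29.8 to 49.3. An array has no read depth, so the precision is limited by how many arrays there are.

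Signals were taken to log2. Arrays were shifted so that their medians over all probe sets were equal, and then so that their medians over 18061 expressed probe sets were equal. Values under the pooled 25th percentile (9.73) were raised to it. Probe sets above the pooled 40th percentile (22.1) on at least 4 arrays were tested. The manufacturer's 57 control probe sets were left out. Of the others, 20826 carried 1 gene symbol, 436 several and 9780 none. The platform's symbols were brought to GRCr8 names for naming only.

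All arrays entered 1 limma fit (version 3.58.1, R 4.3.3) with a mean per group or per time point and an intensity trend. The Benjamini-Hochberg adjustment ran over 20330 probe sets. The fit was tested on simulated data. Weeks 3, 4, 16 and 22 hold 1 array each and were not tested alone. The labels do not say whether arrays differ in batch, and p-values measure the spread between these arrays. The rat correlation with rat as a block was 0.32 in the group fit, where rats 61 and 62 link control and 6-week muscles.

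The members, gene lists and tests were chosen with earlier results of these data known. In lists, the brightest probe set stood for a gene. The text names up to 3 called genes with the largest short-term change and up to 2 called in the opposite direction. It also names the 3 genes closest in profile to each called member, and, beyond this rule, those said to be named after their values were seen. Alternatives covered the scaling, floor, filter, probe set choice, variance trend, array weights, rat block and each array left out. Promoter sequences are those of RefSeq, build GRCr8.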

Additional observations from a re-analysis of the deposited data

Results flagged for a closer look

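Of 33 groups of member values looked at for an outlying array, 2 held one, and chance alone gives about 1 in 20. The 22-week array had a Cnn1 signal of 37.71, apart from the other 3 long-term arrays by 0.84 of the group's range. Control replicate 2 had 12.97 for Myh11 1381219_at, where the other 3 controls stood at the floor. The gap was then the whole range by construction, so the rate of 1 in 20 does not hold for that group.

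The short-term and long-term groups differed, by the limma test of the difference, for Tagln (-0.99), for Pdgfrb in 1370642_s_at (-0.90), 1379211_at (-1.35) and 1391394_s_at (-0.90), and for Rgs5 (-0.55). These calls were lost in 13 of 28 alternatives for Tagln, 16 of 28 for Rgs5 and 5 of 28 for 1370642_s_at. Weeks 2 to 4 differed from week 1 within the short-term group for Tagln (1.58), Cnn1 (1.85) and Myl9 (1.32). That comparison was added after the values were seen, so its p-values are no independent evidence. Its calls for these genes were all lost with no filter.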

How the results depend on the processing

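Of 1906 member values computed under alternatives, 1707 kept their direction and their side of the threshold. A further 129 kept the direction and no longer passed, 31 came to pass and 39 changed sign, all of the last without a call. On the deposited scale 1 probe set was called higher in the short-term group, 2 lower from short-term to long-term, 2 lower at 1 week, 3 higher at 2 weeks and 1 higher in weeks 2 to 4 against week 1. With a common median over all probe sets the long-term, 1-week and 2-week counts were 2, 2 and 4. A trimmed mean gave 0 at 1 week. No filter gave 2 lower from short-term to long-term, 0 at 1 week, 4 at 2 weeks and 0 in weeks 2 to 4 against week 1, with more probe sets tested. No intensity trend gave 3, 0 and 1 for the long-term, 1-week and weeks 2 to 4 counts. Array weights gave 3, 2, 4 and 5 for the long-term, 1-week, 2-week and weeks 2 to 4 counts. Without the 1-week arrays 8 were lower from short-term to long-term. The share of all probe sets for this count is not given here. Over the alternatives run, between 1904 and 4248 probe sets in all were lower in that comparison, against 3142 in the main fit. Beyond what the construction of an alternative shows, the cause was not tested.

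Leaving out 1 array at a time gave 2 to 6 higher in the short-term group, 2 to 6 lower from short-term to long-term, 0 to 1 higher and 0 to 2 lower at 1 week, 5 to 10 higher at 2 weeks and 0 to 4 in weeks 2 to 4 against week 1. With rat as a replicate block Rgs5 passed in the short-term group (0.54, adjusted p = 0.043), and no other member call changed in any comparison.

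Values without a call changed sign as follows. On the deposited scale Tagln and Myl9 were -0.08 and -0.06 at 1 week, Cnn1 -0.03 and Pdgfrb 1391394_s_at 0.00 at 6 weeks. With a common median Acta2 and Cspg4 were 0.06 and 0.10 from short-term to long-term, and Tagln and Myl9 -0.10 and -0.08 at 1 week. Short-term Acta2 was 0.04 with a common 75th percentile, 0.18 with quantile normalization, 0.17 with a trimmed mean and 0.36 without the 1-week arrays. Myh11 at 1 week was 0.03 with quantile normalization and 0.06 with a trimmed mean, and Cspg4 0.07 with the latter. Cnn1 at 6 weeks was 0.00 with quantile normalization and -0.01 with array weights. Rgs5 in the long-term group was 0.08 with array weights and 0.01 with rat as a replicate block. Leaving out 1 array at a time, values that changed sign ran from -0.18 to 0.15 for Acta2 in the short-term group, from -0.27 to 0.06 for Cspg4, -0.22 to 0.01 for Myh11 and -0.01 to 0.26 for Myl9 at 1 week, and from -0.12 to 0.52 for Pdgfrb 1379211_at in weeks 2 to 4 against week 1. In the long-term group they ran from -0.10 to 0.42 for Pdgfrb 1370642_s_at, -0.22 to 0.15 for Rgs5 and -0.27 to 0.02 for Cnn1. At 6 weeks they ran from -0.09 to 0.36 for Tagln, -0.15 to 0.14 for Cnn1 and -0.01 to 0.47 for Cspg4. Relative to Myh11, they ran from -0.06 to 0.36 for Acta2 and -0.03 to 0.28 for Cspg4 from short-term to long-term, and from -0.18 to 0.03 for Myl9 and -0.43 to 0.08 for Pdgfrb from control to long-term.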
